A study of Mus musculus with 12 samples.

Results

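The lipid absorption and chylomicron assembly genes are 35 genes that enterocytes use to take up fatty acids and cholesterol and to ship them out as lipoprotein particles. They were chosen by gene symbol from a list of known genes of this pathway, and all 35 are among the 55891 genes of the deposited table. The choice was made with earlier results of these data known. Member counts set beside the shares of all tested genes are therefore no independent evidence. RNA from ileal mucosal scrapings of 12 mice was sequenced, 1 library per mouse, in a study of what the receptor tyrosine kinase ErbB3 does for the barrier of the small intestine. The ERBB3-dIE group had 6 mice (mice 1 to 3 from litter B and mice 4 to 6 from litter A). The Erbb3-FF group that it was set against had 6 mice as well (mice 1 and 2 from litter B and mice 3 to 6 from litter A). The mice were taken at baseline. The labels give genotype and litter and no strain, age or sex, and they do not say how the ERBB3-dIE mice were made, in which cells Erbb3 was changed or which part of it. Values are TPM, which scale each gene to its length and each library to the same total, so they give relative levels and the sequencing depth behind them is unknown.

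In the small intestine, fatty acids and monoacylglycerols from digested fat enter enterocytes, are carried by binding proteins, activated to acyl-CoA and rebuilt into triglyceride on the membrane of the endoplasmic reticulum. Part of the triglyceride is kept in cytosolic droplets. The rest is loaded by the microsomal triglyceride transfer protein onto apolipoprotein B, and the particle leaves through the secretory pathway as a chylomicron bound for the lymph. Dietary cholesterol enters by its own transporter, is esterified and joins the particle. Most fat is absorbed in the proximal small intestine, and the ileum carries out the same steps at a lower level.

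Erbb3 itself had 104 to 206 TPM in ERBB3-dIE mice and 87.3 to 151 TPM in Erbb3-FF mice (log2 difference 0.16, adjusted p = 0.402). A TPM over the whole gene does not show the loss of a part of it, so these values check no label. The libraries had 12344 to 13364 genes at 1 TPM or more, and mitochondrial genes took 7.94 to 22.1% of their TPM. Ribosomal sequences, here the entries Mir6236 and Rn18s-rs5 only, reached 10.2 and 10.8% in the libraries of Erbb3-FF mice 5 and 6, against 1.62% or less elsewhere. The rescaling used below leaves out these entries and the mitochondrial genes, and keeps the ribosomal protein genes. Ileal markers were abundant (Fabp6, the ileal bile acid binding protein, had 6459.8 TPM or more in every library). The 6 proximal intestine markers summed to 13.8 to 40.6 TPM over all libraries, most of it from Slc40a1, the iron exporter ferroportin, at 11.3 to 37.8 TPM, and Adh6a, at 0.957 to 8.29 TPM. One library stood apart from its labelled litter: Erbb3-FF mouse 3, labelled litter A, was nearer to the Erbb3-FF litter B mean than to the other Erbb3-FF litter A mice for 30 of the 33 tested members (90.9%) and for 62.0% of all tested genes. It lay above each of the 6 other litter A libraries in 28 of 33 members (84.8%) and in 27.2% of all tested genes. It is kept under its label here, and counts are given with and without it.

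Genes of every step from fatty acid binding to particle assembly were lower in ERBB3-dIE mice, among them Fabp2, Acsl5, Dgat2, Cidec, Apoa1 and Mttp, as was the transcription factor gene Creb3l3. With litter as a term, 12 of the 33 tested members had lower TPM in ERBB3-dIE mice and 0 had higher TPM (limma, Benjamini-Hochberg adjusted p under 0.05 over 12605 genes). Across all tested genes, 3.7% were called lower and 1.66% higher. The difference was negative for 30 of 33 members, with a median of −0.58 on the log2(TPM + 0.5) scale, against a median of −0.00 over all tested genes. At an unadjusted p under 0.05, 24 members were lower and 0 higher, against 13.1% and 8.71% of all tested genes. The adjusted p of the authors' deposited table called 18 members lower and 1, Plin2, higher, against 7.51% and 5.07% of the genes with such a p. The 12 called members were Creb3l3, Apoa1, Fabp2, Cidec, Slc27a4, Npc1l1, Mttp, Apob, Acsl5, Lpcat3, Dgat2 and Plin3. Without Erbb3-FF mouse 3, 13 members were lower, against 3.26% of all tested genes, and the member median was −0.43. That fit kept 10 of the 12 calls, lost Acsl5 (adjusted p = 0.0607) and Npc1l1 (0.0526), and gained Agpat2 (0.0374), Apoa4 (0.0460) and Sar1b (0.0309). Leaving out ERBB3-dIE mouse 5 left 5 lower members, against 1.51% of all tested genes, and leaving out Erbb3-FF mouse 1 left 6, against 1.68%.

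**Figure D1:**
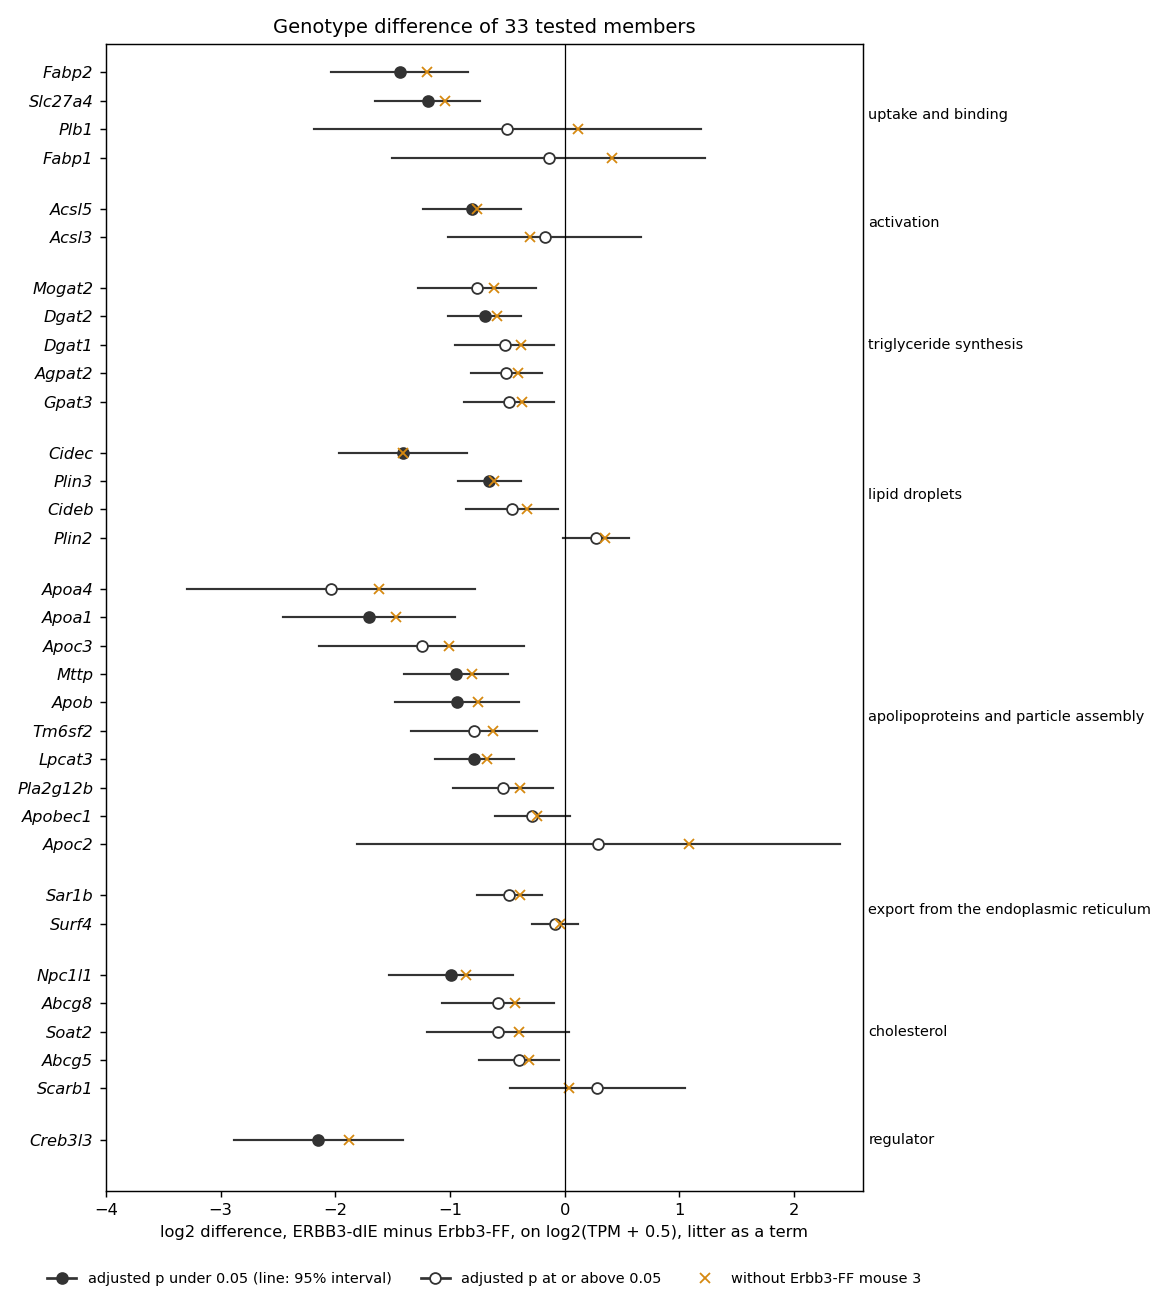
Log2 difference of each of the 33 tested members on the horizontal axis, ERBB3-dIE minus Erbb3-FF with litter as a term, grouped by role; points are estimates, lines 95% intervals, and filled points have an adjusted p under 0.05. Filled points lie left of 0 in 12 members, and Creb3l3 at −2.15 is farthest left.

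The summed TPM of the 35 members was 12640, 11210 and 8662 in ERBB3-dIE litter B mice, against 19042 and 17516 in Erbb3-FF litter B mice. In litter A it was 3407, 3338 and 4500 in ERBB3-dIE mice, against 22337, 8982, 8345 and 9418 in Erbb3-FF mice. The ERBB3-dIE mice were below the Erbb3-FF mice within each litter, while ERBB3-dIE mice 1 and 2 of litter B exceeded Erbb3-FF mice 4 to 6 of litter A. Averaged over both litters the sum was 7293 ± 4108 TPM in ERBB3-dIE mice and 14274 ± 6083 TPM in Erbb3-FF mice (SD, n = 6 each). In scrapings a lower level from fewer enterocytes and from less RNA per enterocyte cannot be told apart. The 10 pan-epithelial markers summed to 9021 to 12157 TPM in ERBB3-dIE mice and 10558 to 13259 TPM in Erbb3-FF mice, with Krt20 lower (−0.59, adjusted p = 0.0138), Krt18 higher (0.34, 0.0377) and 8 not called.

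**Figure D2:**
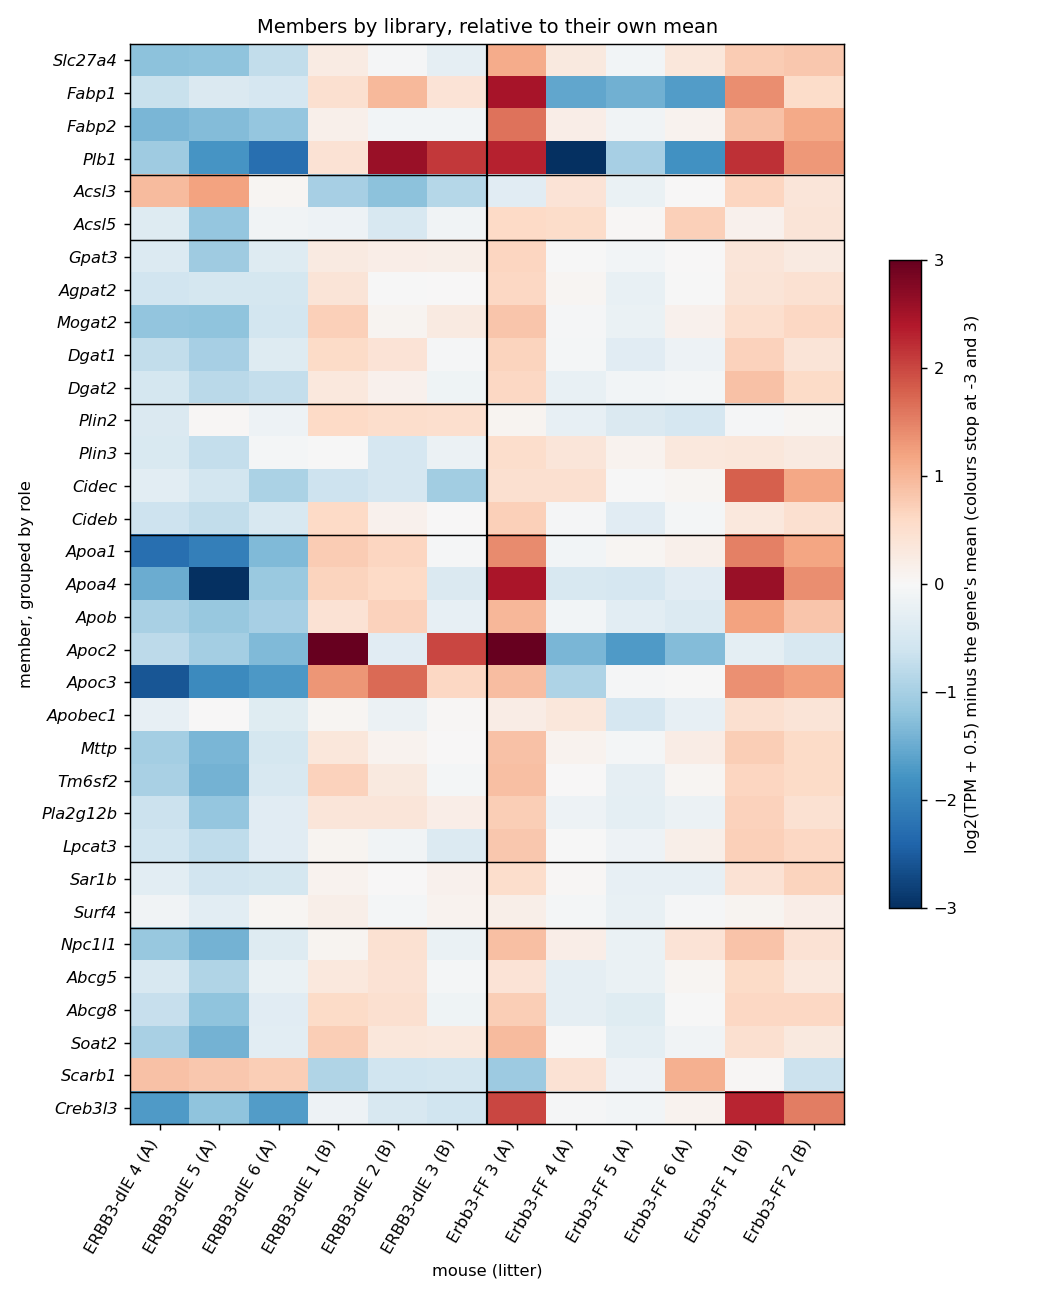
Each row is a member and each column a library, grouped by genotype and litter; colour is log2(TPM + 0.5) minus the gene's mean over the 12 libraries. ERBB3-dIE litter A mice are coloured lowest for most members. Erbb3-FF mouse 3 is coloured more like the litter B columns than like the other litter A columns.

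The promoters of the 4 members with the largest called falls are shown, chosen by size of fall alone. Each window runs from 250 bases before to 50 bases after the RefSeq start (RefSeq, GRCm38.p6, while the expression table used GRCm39). Capitals mark matches to the letters searched on both strands.
Creb3l3, chr10:81092542-81092841, minus strand, the first of 2 listed starts: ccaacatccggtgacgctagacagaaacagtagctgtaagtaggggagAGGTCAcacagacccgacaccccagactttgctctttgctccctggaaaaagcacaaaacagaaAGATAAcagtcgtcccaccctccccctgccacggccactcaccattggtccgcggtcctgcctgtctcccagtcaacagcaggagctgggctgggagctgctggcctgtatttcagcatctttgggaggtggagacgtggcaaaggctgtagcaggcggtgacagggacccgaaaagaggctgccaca
Apoa1, chr9:46228380-46228679, plus strand: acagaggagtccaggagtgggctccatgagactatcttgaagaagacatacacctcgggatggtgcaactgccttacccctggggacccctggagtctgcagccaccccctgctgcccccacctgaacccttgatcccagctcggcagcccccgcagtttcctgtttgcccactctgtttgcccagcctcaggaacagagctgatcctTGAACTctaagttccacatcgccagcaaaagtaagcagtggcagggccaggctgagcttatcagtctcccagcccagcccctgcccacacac
Fabp2, chr3:122894822-122895121, plus strand: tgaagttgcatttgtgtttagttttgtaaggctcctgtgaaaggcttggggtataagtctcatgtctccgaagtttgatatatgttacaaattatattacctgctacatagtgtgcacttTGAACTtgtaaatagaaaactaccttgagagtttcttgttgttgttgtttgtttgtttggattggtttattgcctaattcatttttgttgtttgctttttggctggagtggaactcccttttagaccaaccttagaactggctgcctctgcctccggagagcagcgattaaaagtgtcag
Cidec, chr6:113435711-113436010, minus strand, the first of 2 listed starts: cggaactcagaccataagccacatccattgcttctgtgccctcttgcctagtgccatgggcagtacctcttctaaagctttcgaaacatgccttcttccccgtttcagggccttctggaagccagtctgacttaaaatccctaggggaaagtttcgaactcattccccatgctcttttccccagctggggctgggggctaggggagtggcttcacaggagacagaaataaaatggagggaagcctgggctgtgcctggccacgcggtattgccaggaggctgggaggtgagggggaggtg

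The letters searched were the nuclear receptor motif AGGTCA, its variant AGTTCA, the GATA type AGATAA, the cyclic AMP response type TGACGT and the HNF4 type CAAAGTCCA, none of which contains another. The variant was added after the windows had been read, so its count below, which includes Apoa1 and Fabp2, is not independent of that choice. Creb3l3 holds AGGTCA 202 bases and AGATAA 138 bases before its start. Apoa1 and Fabp2 hold the variant on the other strand (TGAACT), 42 and 130 bases before their starts, and the Cidec window holds none of the 5. Of the 28 members with an entry, which have 32 windows, 6 hold AGGTCA, 10 hold AGTTCA, 3 hold AGATAA, 2 hold TGACGT and 0 hold CAAAGTCCA. A member was counted if any of its windows matched. The shares over all 32851 RefSeq windows of this length, counted per window and so not in the same unit, are 16.3%, 14.0%, 11.2%, 7.51% and 0.475%. A match describes letters only and shows no binding.

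Uptake and binding genes held the abundant Fabp2 and the fatty acid transporter Slc27a4, both lower. Fabp2, the intestinal fatty acid binding protein of the enterocyte cytosol, had 2920.5, 2491 and 2467 TPM in ERBB3-dIE litter B mice, against 4811 and 5750.2 TPM in Erbb3-FF litter B mice. In litter A it had 1006, 1059 and 1172 TPM in ERBB3-dIE mice, against 8042, 3007, 2450.2 and 2819.7 TPM in Erbb3-FF mice. The genotypes did not overlap within either litter, and the difference was −1.44 (SE 0.27, adjusted p = 0.0148, called in each of the 12 fits that left out 1 library). Slc27a4, also called FATP4, an acyl-CoA synthetase that drives fatty acid uptake, had 136, 112 and 94.997 TPM in ERBB3-dIE litter B mice, against 196 and 199.7 TPM in Erbb3-FF litter B mice. The litter A values were 48.5, 49.7 and 68.5 TPM in ERBB3-dIE mice, against 249.9, 140.1, 108 and 144 TPM in Erbb3-FF mice. It too did not overlap within a litter and its difference was −1.19 (SE 0.21, adjusted p = 0.0109), again in all 12 such fits.

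The other uptake genes gave no call. Fabp1, the liver-type binding protein, also made by proximal enterocytes, had 4.95 to 16.5 TPM in ERBB3-dIE mice and 2.21 to 47.1 TPM in Erbb3-FF mice (−0.14, 95% interval −1.50 to 1.23, adjusted p = 0.924). Erbb3-FF mouse 3 held its highest value, and without that library the difference was 0.41 (adjusted p = 0.431). In every library Fabp1 had far fewer TPM than Fabp2. Plb1, a brush border phospholipase, ranged from 1.85 to 67.8 TPM in ERBB3-dIE mice and from 0.894 to 55.6 TPM in Erbb3-FF mice (−0.50, adjusted p = 0.749). Cd36, a scavenger receptor for fatty acids, had at most 1.17 TPM in ERBB3-dIE mice and 2.69 TPM in Erbb3-FF mice and was too low to be tested.

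Of the acyl-CoA synthetases, Acsl5 was lower and Acsl3 was not called. Acsl5, the main long-chain form of the small intestine, had 191, 151 and 198 TPM in ERBB3-dIE litter B mice, against 233 and 278 TPM in Erbb3-FF litter B mice. Litter A gave 163, 94.6 and 199 TPM in ERBB3-dIE mice, against 322, 309, 217 and 348 TPM in Erbb3-FF mice. All 6 ERBB3-dIE mice lay below all 6 Erbb3-FF mice (−0.81, SE 0.20, adjusted p = 0.0381), yet only 3 of the 12 fits without 1 library called it. Acsl3, which is tied to lipid droplet growth, had 7.07 to 40.1 TPM in ERBB3-dIE mice and 13.6 to 27.0 TPM in Erbb3-FF mice (−0.17, adjusted p = 0.829).

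Triglyceride synthesis had 1 called gene among 5, and all 5 differences were negative. Dgat2, one of a pair of enzymes for the last acylation step, had 55.3, 48.7 and 40.9 TPM in ERBB3-dIE litter B mice, against 82.5 and 66.4 TPM in Erbb3-FF litter B mice. Litter A gave 30.6, 25.4 and 27.1 TPM in ERBB3-dIE mice, against 68.9, 38.4, 42.2 and 42.9 TPM in Erbb3-FF mice. The genotypes were apart within each litter (−0.70, SE 0.15, adjusted p = 0.0216, called in 9 of 12 fits without 1 library). Its partner enzyme Dgat1, the more abundant of the pair in TPM, had 152 to 452 TPM in ERBB3-dIE mice and 239 to 487 TPM in Erbb3-FF mice and was not called (−0.52, adjusted p = 0.151). Mogat2, the monoacylglycerol acyltransferase that starts the intestinal route, had 55.5 to 211 TPM in ERBB3-dIE mice and 111 to 230.0 TPM in Erbb3-FF mice (−0.77, adjusted p = 0.0829). Agpat2 had 126 to 247 TPM in ERBB3-dIE mice and 161 to 288 TPM in Erbb3-FF mice (−0.51, adjusted p = 0.0619). Both lay apart in litter A, where the ERBB3-dIE mice were lower, and overlapped in litter B. Gpat3, of the glycerol phosphate route like Agpat2, had 18.3 to 47.1 TPM in ERBB3-dIE mice and 36.6 to 61.2 TPM in Erbb3-FF mice (−0.49, adjusted p = 0.137). Dgat2 and Mogat2 are neighbours on chromosome 7.

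Of the 4 lipid droplet members, Cidec and Plin3 were lower in ERBB3-dIE mice and 0 were higher (limma; 0 higher at an unadjusted p under 0.05 as well). Cidec, also called FSP27, which enlarges droplets, had 11.1, 12.2 and 8.22 TPM in ERBB3-dIE litter B mice, against 61.6 and 39.3 TPM in Erbb3-FF litter B mice. In litter A it had 13.9, 11.8 and 8.77 TPM in ERBB3-dIE mice, against 24.4, 24.6, 17.3 and 18.2 TPM in Erbb3-FF mice. All ERBB3-dIE mice were below all Erbb3-FF mice (−1.41, SE 0.25, adjusted p = 0.0119, in 12 of 12 fits without 1 library). Cidec is also an adipocyte gene; of the 7 adipocyte markers 4 were too low to test and 0 of the other 3 were called (limma; 0 at an unadjusted p under 0.05), and the sum of all 7 was 3.4 to 32.3 TPM in ERBB3-dIE mice and 10.6 to 64.1 TPM in Erbb3-FF mice. Adipoq was at 0 in 2 ERBB3-dIE mice and reached 4.11 TPM in Erbb3-FF mouse 1, the mouse with the highest Cidec, and the part of adipocyte RNA in the Cidec difference was not tested.

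Plin3, a perilipin of small droplets, had 60.2, 80.1 and 98.1 TPM as lowest, median and highest value in ERBB3-dIE mice, against 107, 125 and 142 TPM in Erbb3-FF mice. The ranges did not meet (−0.66, SE 0.13, adjusted p = 0.0162, in 12 of 12 fits without 1 library). Together with Acsl5, Cidec and Creb3l3 it made 4 of 33 members whose ranges over all libraries were apart and lower in ERBB3-dIE mice, against 1.43% of all tested genes. Plin2, the perilipin that follows the droplet load of a cell, had 37.1, 62.1 and 76.8 TPM in ERBB3-dIE mice, against 35.5, 46.0 and 53.6 TPM in Erbb3-FF mice. Its difference was 0.27 (95% interval −0.01 to 0.56, adjusted p = 0.253), while the authors' deposited table gave it a log2 fold change of 0.38 at an adjusted p of 0.0385. Cideb, which helps to lipidate particles, had 88.0 to 221 TPM in ERBB3-dIE mice and 115 to 239 TPM in Erbb3-FF mice (−0.46, adjusted p = 0.170).

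The apolipoproteins and the genes of particle assembly held 4 called members of 10. Apoa1, the main protein of high-density lipoprotein and a surface protein of chylomicrons, had 5652, 5157 and 3235 TPM in ERBB3-dIE litter B mice, against 9464 and 7521 TPM in Erbb3-FF litter B mice. In litter A it had 685, 793 and 1322 TPM in ERBB3-dIE mice, against 8868, 3117, 3464 and 3701 TPM in Erbb3-FF mice. Within each litter the genotypes were apart (−1.71, SE 0.34, adjusted p = 0.0181, in 11 of 12 fits without 1 library, the exception being ERBB3-dIE mouse 5, at 0.0521). Apob, the structural protein of the particle, had 176, 262 and 629.5 TPM as lowest, median and highest value in ERBB3-dIE mice, against 294, 527 and 902 TPM in Erbb3-FF mice. Its difference of −0.94 (SE 0.25) was just past the threshold (adjusted p = 0.0494), and 3 of 12 fits without 1 library called it. Mttp, which loads lipid onto apolipoprotein B, had 40.0, 88.3 and 132 TPM in ERBB3-dIE mice, against 99.4, 137 and 192 TPM in Erbb3-FF mice (−0.95, SE 0.21, adjusted p = 0.0261, in 8 of 12 fits). Both genes were apart within each litter and overlapped across litters.

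Lpcat3, a phospholipid remodelling enzyme used in chylomicron formation, had 64.0, 83.7 and 115 TPM in ERBB3-dIE mice, against 98.5, 145 and 189.8 TPM in Erbb3-FF mice. It had the smallest p of this role (−0.79, SE 0.16, adjusted p = 0.0180, in 10 of 12 fits) and was likewise apart within each litter only. Apoa4, a chylomicron apolipoprotein that is made on fat feeding, had 1.49, 11.6 and 31.6 TPM in ERBB3-dIE mice, against 13.7, 34.2 and 121 TPM in Erbb3-FF mice. Its difference was the next largest in size after that of Creb3l3, apart within each litter, but with a wide error (−2.04, SE 0.57, adjusted p = 0.0635). Apoc3, an inhibitor of triglyceride clearance, was at −1.25 (adjusted p = 0.1001) and Apoc2, the activator of lipoprotein lipase, at 0.30 (0.889). Apoa1, Apoc3 and Apoa4 follow each other on chromosome 9.

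Tm6sf2, which is needed to load the particle with lipid, had 40.8 to 178 TPM in ERBB3-dIE mice and 90.3 to 206 TPM in Erbb3-FF mice (−0.79, adjusted p = 0.0910). Its partner in that step, Pla2g12b, had 21.4 to 62.7 TPM in ERBB3-dIE mice and 39.2 to 80.8 TPM in Erbb3-FF mice (−0.54, adjusted p = 0.142). Pla2g12b was apart and lower within each litter, and Tm6sf2 in litter A only. Apobec1, which edits the Apob transcript, had 20.3 to 27.3 TPM in ERBB3-dIE mice and 18.3 to 37.0 TPM in Erbb3-FF mice (−0.28, adjusted p = 0.309). Apoc2 was uneven, with 356 and 179 TPM in ERBB3-dIE mice 1 and 3, 545 TPM in Erbb3-FF mouse 3 and 13.4 to 36.1 TPM in the other 9 libraries. Export from the endoplasmic reticulum gave no call. Sar1b, a coat GTPase whose loss causes chylomicron retention disease in people, had 67.3, 91.1 and 111 TPM in ERBB3-dIE mice, against 85.1, 119 and 161 TPM in Erbb3-FF mice (−0.48, SE 0.13, adjusted p = 0.0526). The ranges overlapped across litters and were apart within each litter. Surf4, a cargo receptor for lipoproteins, differed by −0.08 (95% interval −0.28 to 0.12, adjusted p = 0.647).

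Of the cholesterol genes, Npc1l1, the transporter that takes up dietary cholesterol, was lower. It had 124, 160.2 and 103 TPM in ERBB3-dIE litter B mice, against 212 and 158 TPM in Erbb3-FF litter B mice. The litter A values were 53.0, 43.5 and 89.2 TPM in ERBB3-dIE mice, against 219.6, 136, 101 and 157 TPM in Erbb3-FF mice. The genotypes were apart in litter A and overlapped in litter B (−0.99, SE 0.25, adjusted p = 0.0411), and 4 of 12 fits without 1 library called it. Abcg5 and Abcg8, neighbours on chromosome 17, form the exporter that returns sterols to the gut lumen. Abcg5 had 39.7 to 102 TPM in ERBB3-dIE mice and 61.8 to 111 TPM in Erbb3-FF mice (−0.40, adjusted p = 0.174), and Abcg8 had 23.8 to 82.4 TPM in ERBB3-dIE mice and 42.5 to 92.3 TPM in Erbb3-FF mice (−0.58, adjusted p = 0.155). Soat2, the cholesterol esterifying enzyme, had 10.8 to 50.2 TPM in ERBB3-dIE mice and 24.2 to 57.4 TPM in Erbb3-FF mice (−0.58, adjusted p = 0.259). The genotypes overlapped in all 3 when both litters are read together. Scarb1, a lipoprotein receptor, had 0.648 to 3.42 TPM in ERBB3-dIE mice and 0.497 to 3.94 TPM in Erbb3-FF mice (0.29, adjusted p = 0.675). Abca1, which exports cholesterol to apolipoprotein A1, was too low to test here, with 0.224 to 0.356 TPM in ERBB3-dIE mice and 0.345 to 1.86 TPM in Erbb3-FF mice. The authors' deposited DESeq2 test gave Abca1 a log2 fold change of −1.24 at an adjusted p of 0.00381.

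Creb3l3, a membrane-bound transcription factor of liver and intestine that in mice switches on apolipoprotein and droplet genes, had the largest fall of the members. It had 17.2, 13.7 and 12.6 TPM in ERBB3-dIE litter B mice, against 96.5 and 56.9 TPM in Erbb3-FF litter B mice. Litter A gave 5.59, 8.06 and 5.73 TPM in ERBB3-dIE mice, against 79.4, 18.8, 18.2 and 20.8 TPM in Erbb3-FF mice. The highest ERBB3-dIE mouse lay below the lowest Erbb3-FF mouse (−2.15, SE 0.34, adjusted p = 0.00744, in 12 of 12 fits without 1 library). Without Erbb3-FF mouse 3 the difference was −1.88 (adjusted p = 0.00161).

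**Figure D3:**
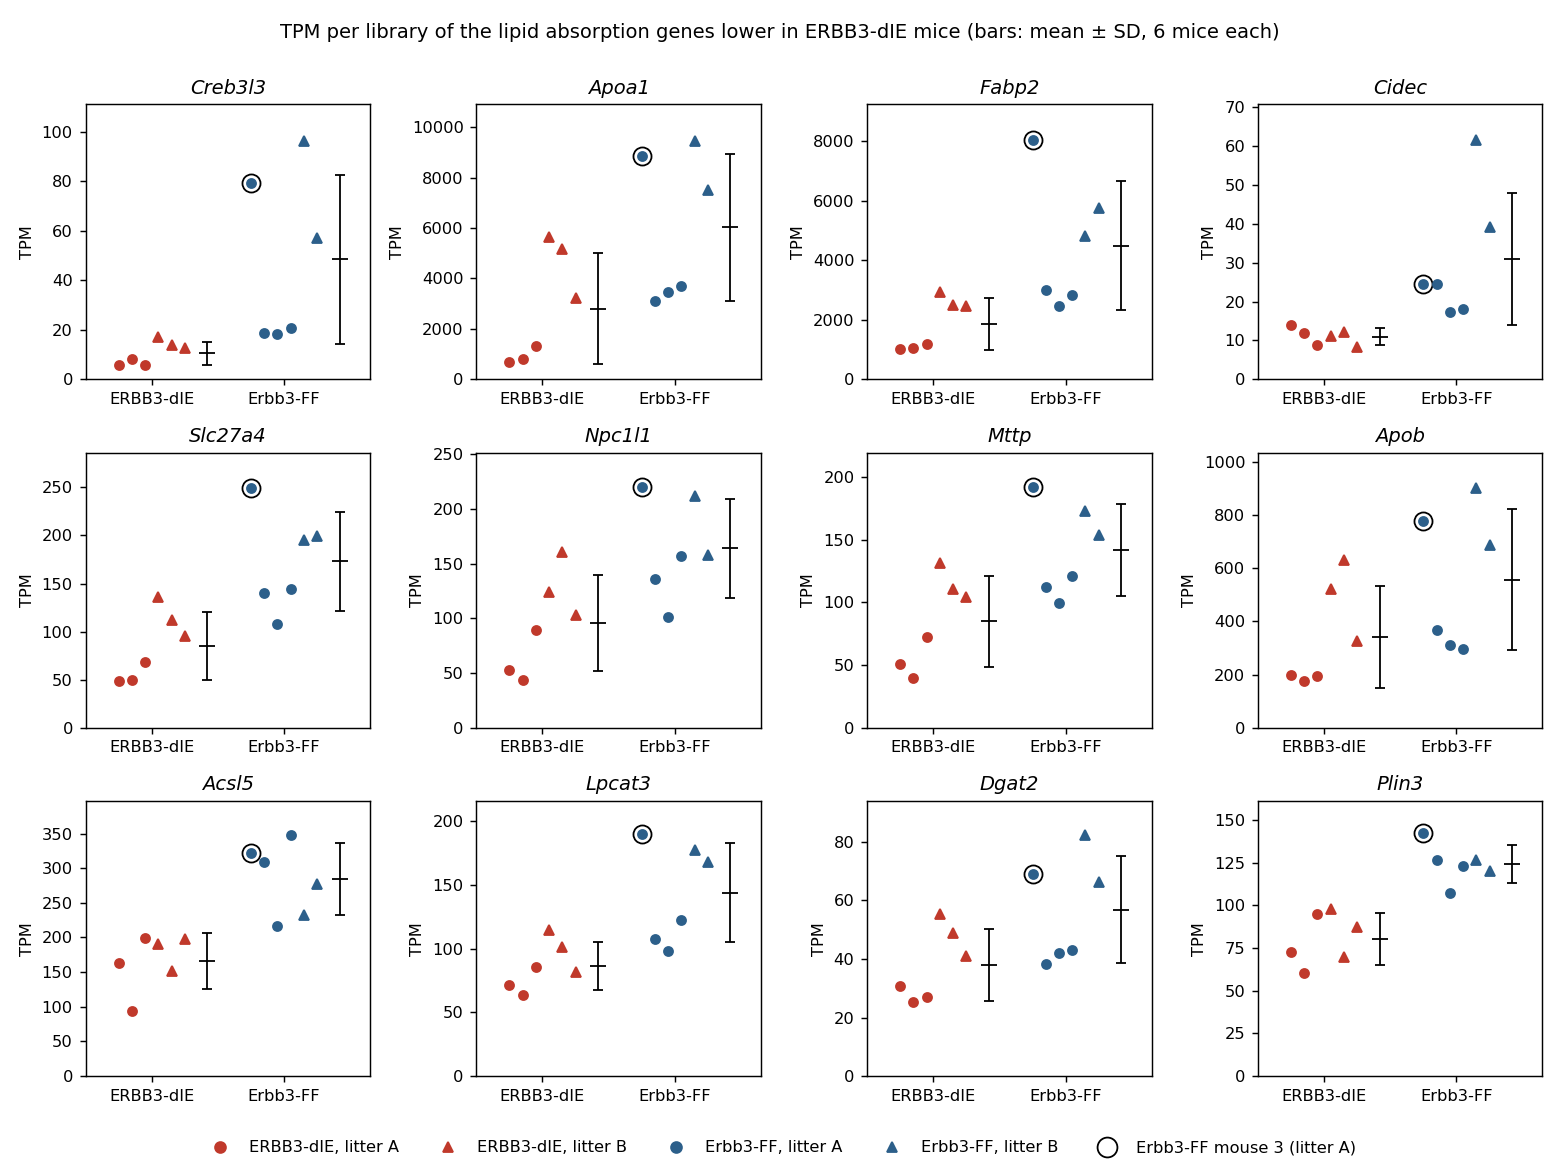
TPM of the 12 members called lower, 1 panel per gene with ERBB3-dIE left of Erbb3-FF; each point is a mouse, its shape the litter, bars are the mean ± SD of 6 mice, and a ring marks Erbb3-FF mouse 3. In Creb3l3, Cidec, Acsl5 and Plin3 the 2 genotypes do not overlap, and in the other 8 they overlap when both litters are read together.

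Read within litters, the ranges were apart and lower in ERBB3-dIE mice for 23 of 33 members in litter A (7.42% of all tested genes), for 17 in litter B (23.7%) and for 14 in both (4.75%). Those 14 were Apoa1, Apoa4, Apob, Mttp, Fabp2, Slc27a4, Acsl5, Dgat2, Plin3, Cidec, Sar1b, Pla2g12b, Lpcat3 and Creb3l3. The litter A count stayed at 23 without Erbb3-FF mouse 3, against 8.32% of all tested genes, and the count for both litters at 14, against 5.05%. Tested in litter A alone (limma), 0 members passed the adjusted threshold. At an unadjusted p under 0.05, 25 were lower and 1 was higher, against 7.77% and 10.1% of all tested genes. Litter B alone gave 0 past the adjusted threshold. At the unadjusted p, 14 were lower and 1 was higher there, against 10.2% and 3.49% of all tested genes. Litter A without Erbb3-FF mouse 3, a fit added after the data had been seen, gave 2 lower members, Fabp2 (−1.35, adjusted p = 0.0290) and Creb3l3 (−1.52, 0.0362), against 0.167% of all tested genes.

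Litter separated many members too, and Plb1, Apoc3 and Apoa1 were the most raised in litter B. Of 33 members 14 had more TPM in litter B and 0 had less (limma, genotype as a term), against 7.16% and 1.4% of all tested genes, with a member median of 0.73 and an all-gene median of 0.05. At an unadjusted p under 0.05, 24 were higher (19.8% of all tested genes) and 1, Scarb1, was lower (9.64%). Plb1 was 3.04 higher (adjusted p = 0.0391), Apoc3 2.36 (0.0169), Apoa1 1.69 (0.0235), Creb3l3 1.26 (0.0456), Apob 1.16 (0.0259) and Mogat2 0.89 (0.0443). Plb1 had 14.8 to 67.8 TPM in the 5 litter B mice, against 55.6 TPM in Erbb3-FF mouse 3 and 0.894 to 5.20 TPM in the other 6 litter A mice. Apoc3 had 164 to 350.2 TPM in litter B, against 203 TPM in Erbb3-FF mouse 3 and 17.7 to 106 TPM in the other litter A mice.

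The litter counts changed with Erbb3-FF mouse 3 and with the scaling. Without Erbb3-FF mouse 3, 26 members were higher in litter B and 1 was lower, against 15.7% and 8.54% of all tested genes. The member median was then 0.85. Leaving out each other library gave 0 to 7 higher members, against 0.77 to 4.79% of all tested genes. Rescaling without mitochondrial and ribosomal genes put the all-gene median at −0.08, against 0.05 as deposited, and left 5 higher members. Relative to the all-gene median the member median was 0.67 with that rescaling and 0.68 as deposited. Over all tested genes 902 were higher and 176 lower in litter B, 391 and 256 after that rescaling, and 356 and 243 with median-of-ratios scaling, which left 4 members.

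The genotype difference could not be shown to depend on litter. The interaction gave 0 called members and 0 called genes (limma), 6 members at an unadjusted p under 0.05 and 9.31% of all tested genes at that p. The interaction was positive, that is less negative in litter B, for 26 of 33 members (median 0.48, against −0.15 over all tested genes). Without Erbb3-FF mouse 3 it was positive for 21 of 33 members (median 0.21, against −0.14 over all tested genes), and without ERBB3-dIE mouse 5 for 23 (median 0.31, against −0.18). Acsl3 had the smallest p (−2.29, litter B minus litter A; adjusted p = 0.128). It had 8.43, 7.07 and 9.26 TPM in ERBB3-dIE litter B mice, against 27.0 and 22.1 TPM in Erbb3-FF litter B mice, and in litter A 33.8, 40.1 and 18.0 TPM in ERBB3-dIE mice, against 13.6, 22.9, 15.0 and 17.3 TPM in Erbb3-FF mice. ERBB3-dIE mice were thus below the Erbb3-FF mice in litter B and above most of them in litter A. Cidec (−1.34, adjusted p = 0.249), Apoc3 (1.98, 0.347) and Apoa1 (1.39, 0.507) came next. On simulated data this test recovered 60.4% of interactions of 2 on the log2 scale and 8.4% of those of 1. The simulated noise was independent for each gene and library, so shifts shared by many genes of a library were not simulated.

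Outside the members, 70 further genes of lipid handling were listed and 58 could be tested. Of these 1 was higher and 5 lower in ERBB3-dIE mice, against 1.66% and 3.7% of all tested genes, with a median of −0.04. The lower ones were Lipa, the lysosomal acid lipase (−1.24, adjusted p = 0.00843), Dgkq, a diacylglycerol kinase (−0.79, 0.00894), Hnf4g (−0.58, 0.0247), Mia2, a cargo receptor partner at exit sites (−0.56, 0.0109), and Lpin3, a phosphatidate phosphatase (−0.55, 0.0436). Slc27a2, a very long-chain acyl-CoA synthetase, was higher (0.64, 0.0298). Without Erbb3-FF mouse 3 Lpin3 was not called (0.0628). The 15 listed genes of fatty acid activation and glycerolipid synthesis gave 1 higher and 2 lower, the 7 tested of droplet formation and lipolysis 1 lower, the 6 tested of assembly 0 (limma; 3 at an unadjusted p under 0.05), the 15 tested of coat and cargo exit 1 lower and the 15 tested regulators 1 lower.

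Among the regulators, Hnf4a, a nuclear receptor of enterocyte genes, had 261 ± 26.5 TPM in ERBB3-dIE mice and 293 ± 27.5 TPM in Erbb3-FF mice (SD, n = 6 each; −0.17, adjusted p = 0.326). Its relative Hnf4g had 79.7 ± 21.3 TPM in ERBB3-dIE mice and 109 ± 10.9 TPM in Erbb3-FF mice. Ppara, a receptor for fatty acids, was not called (−0.59, adjusted p = 0.170), and Gata4 was too low to test. P4hb, the partner subunit of Mttp, was not called (0.12, 0.546), and Apoa5, next to Apoa4, stayed near 0 TPM. By litter, 4 of the 58 were higher in litter B (Mlxipl, Mia2, Hnf4g and Gata6) and 1, Pparg, was lower, against 7.16% and 1.4% of all tested genes, so these counts lie near the background.

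Marker lists of other cells and positions moved with parts of this pattern. The 7 villus tip markers summed to 192 to 304 TPM in ERBB3-dIE mice and 335 to 562 TPM in Erbb3-FF mice without overlap. Lower ones (limma) were 3 of the 7, against 3.7% of all tested genes: Nt5e (−2.70, adjusted p = 0.000441), Ada (−2.39, 0.00246) and Slc28a2 (−1.94, 0.0124). Klf4, Egfr, Fos and Junb were not called. The differences of all 7 were negative, and 5 had an unadjusted p under 0.05 (limma), against 13.1% of all tested genes lower at that p. This list was chosen with earlier results of these data known, so its values are no independent evidence of a villus tip change. The part of villus tip RNA in the lower members was not tested. The 5 ileal markers summed to 7260 to 7653 TPM in ERBB3-dIE litter A mice and 9950 to 12059 TPM in Erbb3-FF litter A mice without mouse 3. They reached 29069 to 38760 TPM in ERBB3-dIE litter B mice, 37180 and 37886 TPM in Erbb3-FF litter B mice and 48937 TPM in Erbb3-FF mouse 3. Of these 5, Slc10a2, the ileal bile acid transporter, was lower in ERBB3-dIE mice (−1.18, adjusted p = 0.0119).

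The sum of the 9 B cell markers lay between 6.1 and 17.8 TPM in all ERBB3-dIE mice. In Erbb3-FF mice 1 to 3 that sum was 329, 149 and 126 TPM, and in Erbb3-FF mice 4 to 6 it was 4.8 to 8.8 TPM. Erbb3-FF mice 1 to 3 are also the 3 libraries with the highest member sums. With these markers as a covariate 0 members were called (limma), 16 were lower at an unadjusted p under 0.05, against 6.53% of all tested genes, and the member median was −0.52. The 8 smooth muscle markers were highest in ERBB3-dIE mice 4 and 5, at 168 and 173 TPM, and at most 52.4 TPM elsewhere; 13 members were lower with them as a covariate, against 4.25% of all tested genes. With the pan-epithelial markers as a covariate 2 members, Creb3l3 and Cidec, were lower, against 0.698% of all tested genes, and the member median was −0.43.

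The remaining lists gave 0 called markers by genotype (limma; 0 at an unadjusted p under 0.05 as well). Macrophage markers summed to 63.6 to 134 TPM in ERBB3-dIE mice and 58.3 to 283 TPM in Erbb3-FF mice. Blood endothelium markers summed to 2.4 to 13.4 TPM in ERBB3-dIE mice and 3.8 to 15.4 TPM in Erbb3-FF mice. Lymphatic endothelium markers summed to 2.9 to 22.9 TPM in ERBB3-dIE mice and 4.1 to 69.99 TPM in Erbb3-FF mice. Within litter B all 3 sums were lower in ERBB3-dIE mice. The macrophage sum was 63.6 to 68.4 TPM in ERBB3-dIE litter B mice, against 164 to 283 TPM in Erbb3-FF litter B mice. For blood endothelium it was 2.39 to 5.69 TPM in ERBB3-dIE mice, against 7.29 to 15.4 TPM in Erbb3-FF mice, and for lymphatic endothelium 2.92 to 8.34 TPM, against 13.3 to 69.99 TPM. In litter A the macrophage sum was higher in ERBB3-dIE mice, at 115 to 134 TPM, against 58.3 to 91.3 TPM in Erbb3-FF mice. The interaction was negative at an unadjusted p under 0.05 for 7 of the 8 tested macrophage markers and called for 0 (for 2 without Erbb3-FF mouse 3), and the part of these cells in the member differences was not tested. Proximal intestine markers summed to 24.7 to 39.5 TPM in ERBB3-dIE mice and 13.8 to 40.6 TPM in Erbb3-FF mice. Liver markers summed to 3.6 to 7.5 TPM in ERBB3-dIE mice and 4.2 to 6.9 TPM in Erbb3-FF mice, and albumin was at or below 0.05 TPM in all 12 libraries.

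**Figure D4:**
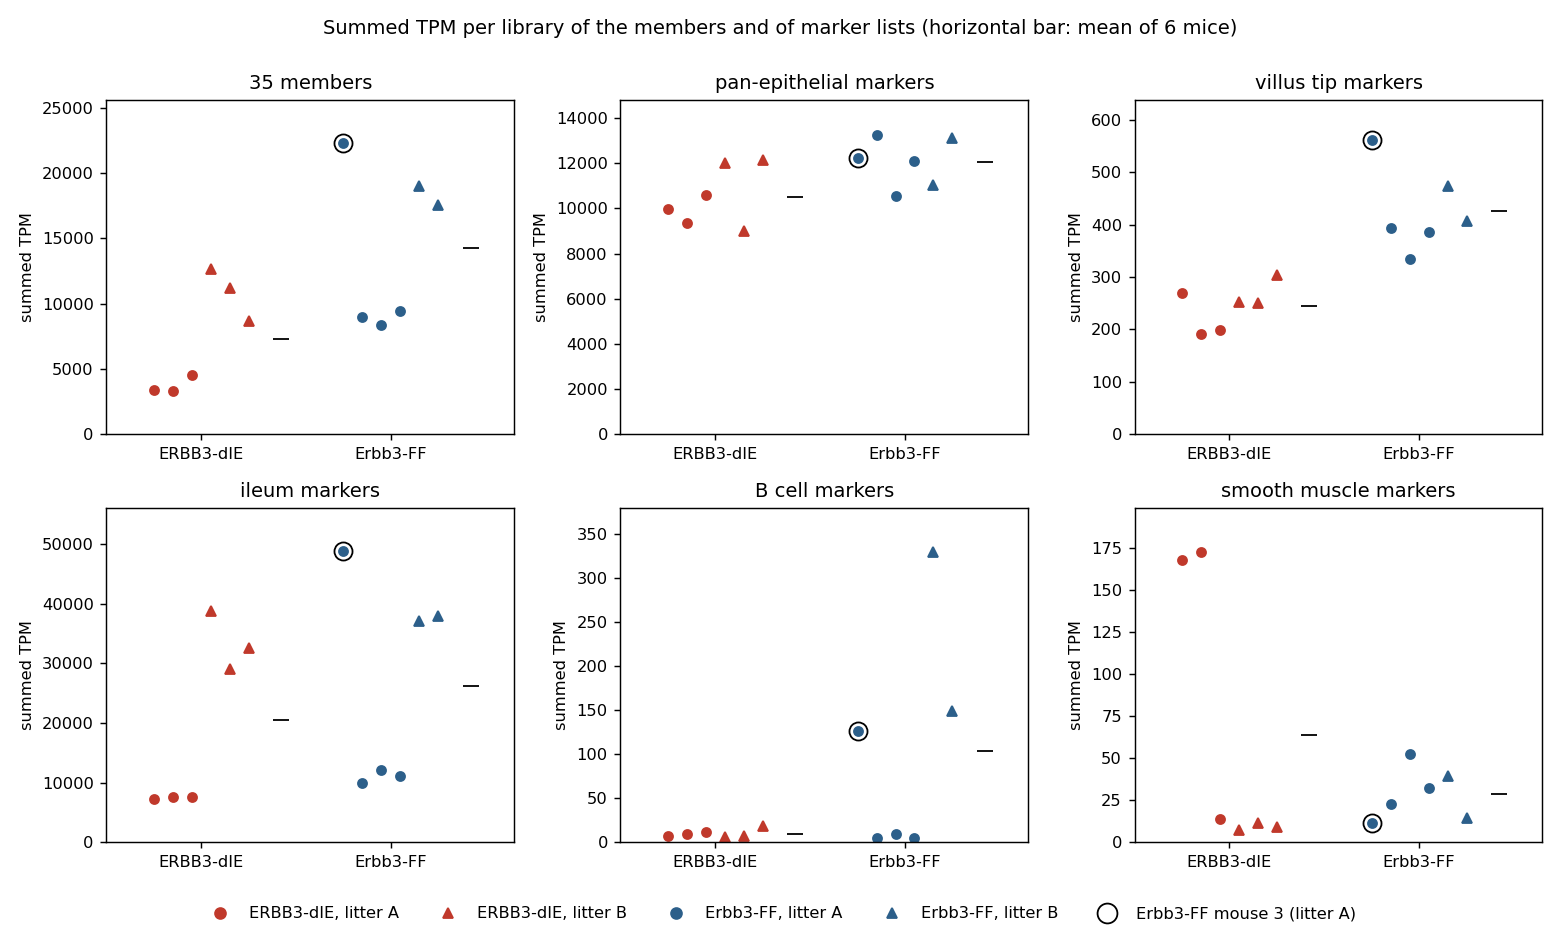
Summed TPM per library of the 35 members and of 5 marker lists, ERBB3-dIE left of Erbb3-FF; points are mice, shape gives the litter, horizontal bars are means of 6 mice and a ring marks Erbb3-FF mouse 3. Member sums and ileal marker sums are high in litter B and in Erbb3-FF mouse 3, and villus tip sums are lower in all ERBB3-dIE mice. The lists were chosen with earlier results of these data known.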

How the data were processed

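Per the labels' protocols, RNA from ileal mucosal scrapings was made into strand-marking mRNA libraries and sequenced as single-end reads. The tools named in the submitters' processing notes are CASAVA, DESeq2 and Salmon 1.10.0, with the build GRCm39; no annotation release is given in the sources used here. The authors deposited TPM per library, and also their own DESeq2 columns: the mean normalized signal over libraries (not used in any test), log2 fold changes with standard errors, a Wald score and p-values with adjusted p-values. The covariates of that test are unknown here.

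A gene was tested if 6 or more libraries had 1 TPM or more (12605 genes), on log2(TPM + 0.5) with limma 3.58.1 (R 4.3.3; lmFit, eBayes with a variance trend) with litter and genotype as terms over all 12 libraries, with their product added for the interaction. Benjamini-Hochberg adjustment ran over all tested genes, at a threshold of 0.05. Log2 differences understate the change of low genes. Nothing in the labels says more of the mice than litter and number, so p-values measure the spread between these mice. No litter other than A and B is labelled, so the litter p-values do not measure the spread between litters. Whatever else differed between litters A and B cannot be told apart from litter. On simulated data 17.2%, 70.6% and 92.4% of genotype differences of 0.5, 1 and 2 were recovered. Those data had independent noise for each gene and library, so these shares may not hold for the real libraries.

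The members and all gene lists were chosen with earlier results of these data known. All 35 members are named. Values per library are given for members past the genotype threshold and the smallest p of each role, 6 members are named for litter and 4 for the interaction, and up to 12 further pathway genes past the threshold. Alternatives covered the pseudocount, filter, scaling, model terms, covariates, single litters and left-out libraries. Promoters are RefSeq's, with 28 of 35 members matched. The value of 1 marker gene is not reported here.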

Additional observations from a re-analysis of the deposited data

Results flagged for a closer look

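Among 70 checks of members within a genotype (35 genes, 2 genotypes), 2 had a library whose gap to its nearest neighbour was above Dixon's critical share of the range of the 6 libraries on the log2(TPM + 0.5) scale; chance alone flags about 1 group in 20. For Acsl5 the lowest ERBB3-dIE library was mouse 5, with 94.6 TPM against 151 to 199 TPM in the other 5 ERBB3-dIE mice, and the gap took 0.632 of the range. For Apoc2 the highest Erbb3-FF library was mouse 3, with 545 TPM against 13.4 to 36.1 TPM in the other 5 Erbb3-FF mice, and the gap took 0.736 of the range.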

How the results depend on the processing

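TPM keeps no depth, and the number of mice limits the precision. Of the 12 lower members, all 12 calls were kept with a pseudocount of 1, with a filter at a mean of 5 TPM, with rescaling without mitochondrial and ribosomal genes and in the authors' deposited test, 10 with median-of-ratios scaling and 11 with a pseudocount of 0.1. The cause was not tested for any change below.

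Without a filter, 27814 genes and 35 members were tested. Of these, 7 members were lower (245 lower and 105 higher genes of all), and 1 was higher in litter B (219 higher, 26 lower genes of all). The interaction without a filter gave 50 lower and 3 higher genes of all. Without a litter term, 2 members were lower (156 lower, 87 higher of all). Litter A alone gave 0 members (2 lower, 4 higher of all), litter B alone 0 (9 and 6), litter A without Erbb3-FF mouse 3 gave 2 (21 and 18). The B cell covariate left 0 (28 and 21), the pan-epithelial covariate 2 (88 lower of all), and dropping ERBB3-dIE mice 4 and 5 left 1 (65 and 43). Without Erbb3-FF mice 5 and 6, 9 members were lower by genotype, against 2.92% of all tested genes. That fit kept only 7 of the lower calls made with all libraries. It had 83 genes of all higher by genotype, and litter B had 0 higher members (4 higher, 3 lower of all). Rescaling, with 12995 genes tested, gave 823 lower genes of all by genotype, and in litter B 5 higher members (391 of all). Median-of-ratios scaling, with 12606 genes tested, gave 4 higher members in litter B (356 of all), and no genotype term 0 (261 higher, 36 lower of all). The authors' deposited test had 1 higher member (1164 lower, 786 higher of the 15490 genes with an adjusted p). The interaction's all-gene median was −0.15 as deposited and 0.07 with median-of-ratios scaling, and relative to it the member median was 0.63 and 0.64.

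Rescaled summed TPM were 221 in ERBB3-dIE and 375 in Erbb3-FF mice for activation, 228 and 274 in these groups for export, and 454 in Erbb3-FF mice for droplets.

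Differences that changed sign by genotype, none of them called, were Fabp1 without a litter term (0.084), in litter A (0.0096), in litter A without Erbb3-FF mouse 3 (1.02) and with the B cell covariate (1.105). Plb1 did so without a litter term (0.0079), in litter A without Erbb3-FF mouse 3 (0.23), with the B cell covariate (0.61) and in the authors' deposited test (0.023). Acsl3 did in litter A (0.77), in litter A without Erbb3-FF mouse 3 (0.67) and with the B cell covariate (0.30). Apoc2 did in litter A (−0.85) and without Erbb3-FF mice 5 and 6 (−0.11). Soat2 (0.081) and Scarb1 (−0.38) did in litter B, and Surf4 with the pan-epithelial covariate (0.062).

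Leaving out 1 library gave 5 to 14 lower members by genotype (190 to 621 lower and 95 to 213 higher genes of all) and 0 to 26 higher and 0 to 1 lower members in litter B (97 to 1982 higher, 4 to 1077 lower of all). For the interaction it gave 0 to 1 members, 0 to 33 lower and 0 to 3 higher genes of all; the 1 member was Acsl3, without ERBB3-dIE mouse 6. The genotype differences then ranged from −0.091 to 1.09 for Apoc2, −0.44 to 0.11 for Acsl3, −0.36 to 0.41 for Fabp1 and −0.87 to 0.12 for Plb1.

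With mouse number as a replicate block, 7 members were lower (148 lower, 68 higher genes of all), with Fabp1 at 0.51 and Plb1 at 0.050. Mouse numbers are not shown to pair the mice. Over all tested genes, deviations of same-numbered mice from their genotype mean correlated at 0.0739 to 0.357. Deviations from the genotype and litter mean correlated at −0.249 to 0.148. Mouse number 3 lies in a different litter in each genotype, and 4 of 12 libraries matched their own number best.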
